A study of Mus musculus with 8 samples.

Results

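The genes described here encode subunits of Polycomb repressive complex 1 (PRC1), including the Cbx proteins. They were Cbx2, Cbx6, Cbx7, Cbx8, Bmi1, Pcgf2, Ring1, Rnf2 and Phc1, 9 genes of the 36799 genes and other targets on the array. They were chosen by name as the probes whose RefSeq accession maps to these symbols. The 9 genes had 13 probes among 55681, and all 13 passed the filter on dim probes, which kept 23202 genes and targets.

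RNA came from the back skin epidermis of newborn (P0) mice on the C57BL/6 strain, 4 with epidermis-conditional deletion of Eed (EED cKO, K14-Cre; EED flox/flox) and 4 labelled control. Eed is a core subunit of PRC2. The Krt14 promoter directs Cre to embryonic epidermal stem cells, from which keratinocytes and, per the paper, Merkel cells arise. Cells of other lineages in the peeled epidermis keep the gene. The exact genotype of the controls, the sex of the mice and whether animals were pooled were not given in the sources used here. Each sample was hybridized with Universal Mouse Reference RNA on a two-color Agilent 8X60K array, with the sample in Cy3 on replicates 1 and 3 of each genotype and in Cy5 on replicates 2 and 4.

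PRC2 trimethylates lysine 27 of histone H3, and canonical PRC1 is recruited in part through this mark. A canonical complex joins a Cbx chromodomain protein that reads the mark, a PCGF protein (Bmi1 or Pcgf2), a RING E3 ligase (Ring1 or Rnf2) that ubiquitinates histone H2A, and a polyhomeotic protein (Phc1, Phc2 or Phc3). In epidermis Polycomb proteins are known for holding non-epidermal and cell cycle inhibitor genes silent in progenitor cells.

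Among the 9 genes, Bmi1 rose 2.16-fold in EED cKO epidermis and Cbx8 rose 1.24-fold, whereas Cbx2 fell by 0.57 on the log2 scale. Cbx6 fell by 0.78 on that scale by its brightest probe, and its other probes gave -0.32 and 0.0046. The RING ligase genes Ring1 and Rnf2, as well as Cbx7, Pcgf2 and Phc1, did not pass the test. In all, 4 of the 9 members had an adjusted p below 0.05 (limma), beside 21.8% of all genes and targets tested. Bmi1 alone also passed the 2-fold limit, beside 1.22% of all tested. The samples of the genotypes did not overlap for 3 of the 9 (Bmi1, Cbx2 and Cbx8), beside 17.2% of all tested. The median log2 fold change of the 9 was -0.10 (EED cKO over control), and that of all genes and targets tested was 0.02. Of the 14977 tested that had a gene symbol, as the members have, 3875 had an adjusted p below 0.05. Of those 14977, 242 also passed the 2-fold limit, 3030 did not overlap between genotypes, and the median was 0.0016.

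**Figure D1:**
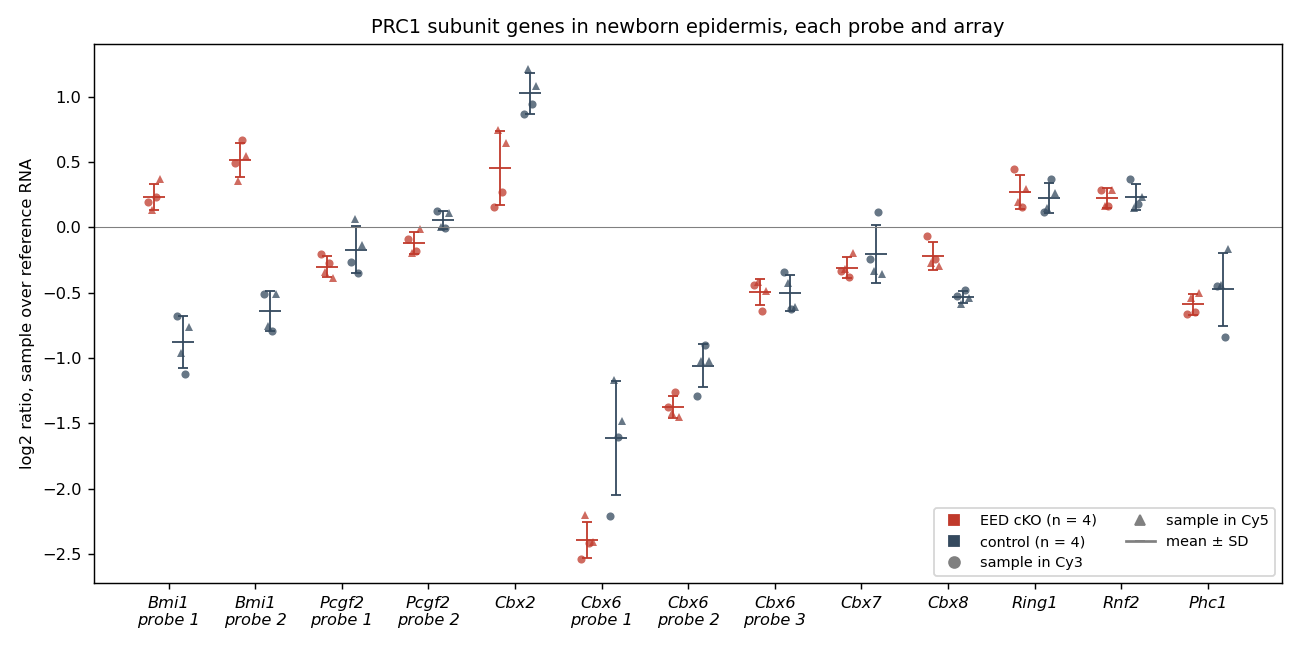
Each of the 13 probes of the 9 genes is shown by its log2 ratio of sample over reference RNA (vertical axis) on the 4 EED cKO (red) and 4 control (dark) arrays, with the mean and SD as bars and the dye as the marker shape. Both Bmi1 probes separate the genotypes without overlap, Cbx2 and Cbx8 separate in opposite directions, and Ring1 and Rnf2 lie at the same ratios in both. The height of a probe cannot be set against that of another probe.

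In RefSeq (GRCm38.p6), 8 of the 9 genes matched an entry of the 250 bases before the gene start. The entries of 3 members that changed are printed 5′ to 3′ on the gene's strand with each CG dinucleotide in capitals, because Polycomb targets in mammals typically start in CpG-rich DNA. They are Bmi1 (chr2:18676768-18677017, plus strand), Cbx8 (chr11:119040914-119041163, minus strand) and Cbx6 (chr15:79834334-79834583, minus strand). The array itself was annotated on an older build.
Bmi1: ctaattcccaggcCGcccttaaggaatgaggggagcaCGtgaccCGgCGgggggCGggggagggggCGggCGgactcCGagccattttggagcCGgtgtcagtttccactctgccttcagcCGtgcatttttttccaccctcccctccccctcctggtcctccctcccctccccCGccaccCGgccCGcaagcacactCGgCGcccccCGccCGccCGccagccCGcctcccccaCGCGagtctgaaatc
Cbx8: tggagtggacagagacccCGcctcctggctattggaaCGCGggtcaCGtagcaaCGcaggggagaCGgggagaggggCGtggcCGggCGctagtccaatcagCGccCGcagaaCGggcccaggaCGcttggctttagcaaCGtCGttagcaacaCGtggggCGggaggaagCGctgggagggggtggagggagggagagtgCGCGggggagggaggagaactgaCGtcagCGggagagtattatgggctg
Cbx6: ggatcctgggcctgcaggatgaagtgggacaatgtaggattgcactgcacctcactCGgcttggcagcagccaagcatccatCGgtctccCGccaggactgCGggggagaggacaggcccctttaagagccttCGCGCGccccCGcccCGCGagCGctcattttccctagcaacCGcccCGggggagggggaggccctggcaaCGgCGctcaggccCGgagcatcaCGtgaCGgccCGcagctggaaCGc
The Bmi1 stretch held 21 CG dinucleotides, the Cbx8 stretch 22 and the Cbx6 stretch 20. Of 32851 such stretches, 16.3% held as many as Bmi1, 14.8% as many as Cbx8 and 17.9% as many as Cbx6, and the median was 6. The members that did not pass the test lay on both sides of these counts, with 23 in Cbx7, 30 in Ring1, 20 in Rnf2, 8 in Phc1 and 5 in Pcgf2. Cbx2 was not matched.

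Bmi1 and Pcgf2 are alternative PCGF subunits of canonical PRC1, which partner the RING ligase. The log2 ratios of Bmi1 were 0.20, 0.14, 0.23 and 0.37 in EED cKO replicates 1 to 4 and -0.68, -0.96, -1.12 and -0.76 in control replicates 1 to 4. After loess every EED cKO sample had a positive log2 ratio over the reference RNA and every control sample a negative one. The log2 fold change was 1.11 ± 0.11 (SE, 95% interval 0.87 to 1.35), with an adjusted p of 0.000287. The difference was 1.11 among the arrays with the sample in Cy3 and 1.11 among those with the sample in Cy5. The other Bmi1 probe gave 0.49, 0.35, 0.67 and 0.55 in EED cKO and -0.51, -0.76, -0.79 and -0.51 in control, which is 1.16 ± 0.10 (SE, adjusted p = 0.000124 when every probe was tested). By log2 fold change Bmi1 stood at place 196 from the top of the 23202 tested. Its fold change was just under 2-fold in 2 of 26 alternative settings, at 0.97 on the log2 scale with Y-linked genes as a covariate and 0.99 with median centring. Its p was below 0.05 in all 26, and was adjusted in each but the methods' t-test unadjusted.

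Pcgf2, the paralog of Bmi1, was measured by 2 probes. Its brighter probe gave log2 ratios of -0.20, -0.34, -0.27 and -0.38 in EED cKO and of -0.26, 0.07, -0.35 and -0.14 in control. The groups overlapped, with EED cKO replicate 4 below all control samples and control replicates 2 and 4 above all EED cKO samples. Its log2 fold change was -0.13 (95% interval -0.34 to 0.08, adjusted p = 0.366), and a fall of 0.34 or a rise of 0.08 would lie at the ends of that interval. The same probe gave -0.32 with the Feature Extraction log ratio (adjusted p = 0.115) and -0.25 with median centring in place of loess (adjusted p = 0.283). The dimmer probe had ratios of -0.20 to -0.011 in EED cKO and of -0.0040 to 0.12 in control. The groups of this probe did not overlap, beside 16.2% of all probes tested, and its log2 fold change of -0.18 did not pass the test (adjusted p = 0.122). By the Feature Extraction log ratio, which has its own background subtraction and dye normalization, that probe gave -0.87 (adjusted p = 0.0604), and its spots read 37.0 to 57.5 units over a local background of 19 to 22.

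Cbx2, Cbx6, Cbx7 and Cbx8 encode chromodomain subunits, of which a canonical complex carries a single one. The Cbx2 log2 ratios were 0.15, 0.74, 0.27 and 0.64 in EED cKO replicates 1 to 4 and 0.87, 1.22, 0.94 and 1.08 in control replicates 1 to 4. All EED cKO samples were below all control samples. Within each genotype the Cy5-labelled samples were the higher ones, and the genotypes differed by -0.69 among Cy3-labelled and by -0.46 among Cy5-labelled samples. Cbx2 had a log2 fold change of -0.57 ± 0.08 (SE, 95% interval -0.75 to -0.40, adjusted p = 0.00174), which is 1.49-fold lower. The methods' t-test, which has no dye term, gave a Benjamini-Hochberg adjusted p of 0.104.

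Cbx6 fell the most of the 9 genes by its brightest probe. The log2 ratios of that probe were -2.54, -2.20, -2.42 and -2.40 in EED cKO and -2.21, -1.17, -1.60 and -1.48 in control. Control replicate 1 lay just under the highest EED cKO sample, and the other 3 control samples were above all EED cKO samples. The log2 fold change was -0.78 ± 0.15 (SE, 95% interval -1.11 to -0.45, adjusted p = 0.00668). With single arrays left out it ranged from -0.94 (without control replicate 1) to -0.67 (without control replicate 2). With Y-linked genes as a covariate it was -0.57. The methods' t-test gave an adjusted p of 0.112.

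The 3 Cbx6 probes did not give one size of change. A less bright probe gave -1.37, -1.42, -1.26 and -1.45 in EED cKO and -1.29, -1.02, -0.90 and -1.03 in control, with a log2 fold change of -0.32 ± 0.09 (SE, adjusted p = 0.0400). The dimmest probe, whose spots read 47.5 to 69.0 units over a background of 20 to 26, gave -0.64 to -0.42 in EED cKO and -0.62 to -0.34 in control, with a log2 fold change of 0.0046 (95% interval -0.20 to 0.20, adjusted p = 0.979). The median over the 3 probes differed by -0.32 (adjusted p = 0.0396). Cbx6 overlaps Npcd in the RefSeq annotation, and the Npcd probe had a log2 fold change of -0.00087 (adjusted p = 0.996).

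Cbx8 moved the other way. Its log2 ratios were -0.07, -0.27, -0.24 and -0.30 in EED cKO and -0.52, -0.59, -0.48 and -0.54 in control. All EED cKO samples were above all control samples, with EED cKO replicate 1 the highest. This gave a log2 fold change of 0.31 ± 0.07 (SE, 95% interval 0.16 to 0.47, adjusted p = 0.0121), which is 1.24-fold higher. With median centring in place of loess it was 0.16 (adjusted p = 0.402).

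Cbx7 was at the edge of detection, with spots of 41.5 to 87.0 units over a background of 21 to 27, and was well above background on 3 of 4 EED cKO arrays and 4 of 4 control arrays. Its log2 ratios were -0.33, -0.32, -0.38 and -0.20 in EED cKO and -0.24, -0.33, 0.12 and -0.36 in control. Apart from control replicate 3 the groups covered nearly the same range. Its log2 fold change was -0.10 (95% interval -0.34 to 0.13, adjusted p = 0.527). It was -0.32 with normexp without an offset (adjusted p = 0.350) and -0.50 with the Feature Extraction log ratio (adjusted p = 0.218). Cbx7 overlaps Apobec3 in the annotation, whose own probe had a log2 fold change of 0.05 (adjusted p = 0.615).

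In the RefSeq gene order Cbx2 and Cbx8 are direct neighbors on chromosome 11, and Cbx2 fell while Cbx8 rose. Cbx6 and Cbx7 are separated only by Apobec3 on chromosome 15. Commd3, the gene next to Bmi1, rose with a log2 fold change of 0.41 (adjusted p = 0.0242), and Dnajc1 beyond it had -0.04 (adjusted p = 0.781). Direct neighbors of members that did not pass also changed. They were H2-K1 next to Ring1 (0.65, adjusted p = 0.00113), Niban1 next to Rnf2 (0.87, adjusted p = 0.00120), Pdgfb next to Cbx7 (-0.48, adjusted p = 0.0167) and Cisd3 next to Pcgf2 (-0.22, adjusted p = 0.0430). The neighbors on their other side, H2-Ke6, Trmt1l, Apobec3 and Psmb3, and M6pr next to Phc1, did not pass.

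Ring1 and Rnf2 are the catalytic E3 ligase subunits shared by canonical and variant complexes. The Ring1 log2 ratios were 0.44, 0.19, 0.16 and 0.30 in EED cKO and 0.12, 0.15, 0.37 and 0.27 in control. Those of Rnf2 were 0.29, 0.16, 0.16 and 0.29 in EED cKO and 0.37, 0.15, 0.18 and 0.23 in control. For both genes the genotypes covered the same range. The log2 fold change of Ring1 was 0.05 (95% interval -0.15 to 0.25, adjusted p = 0.748), and that of Rnf2 was -0.0075 (95% interval -0.18 to 0.16, adjusted p = 0.958). With median centring in place of loess Rnf2 gave -0.18 (adjusted p = 0.278), and the sign of each gene turned under some of the settings tried.

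Phc1 is a polyhomeotic subunit, which links complexes through its SAM domain. Its log2 ratios were -0.67, -0.54, -0.65 and -0.50 in EED cKO and -0.44, -0.44, -0.84 and -0.16 in control. The control samples lay on both sides of the EED cKO samples. Its difference was -0.12 on the log2 scale (95% interval -0.35 to 0.12, adjusted p = 0.464). It was -0.38 with the Feature Extraction log ratio (adjusted p = 0.173), -0.27 with Y-linked genes as a covariate (adjusted p = 0.0866) and -0.21 with normexp without an offset (adjusted p = 0.396).

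The changes of the 9 genes can be read against all genes tested, in the plot of the distribution of log2 fold changes. Cbx6, by its brightest probe, stood at place 113 and Cbx2 at place 473 from the bottom of the 23202. The median over the Cbx6 probes gave a smaller fall of -0.32. From the top, Bmi1 stood at place 196 and Cbx8 at place 2632. The members that did not pass the test lay nearer the middle of the distribution.

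**Figure D2:**
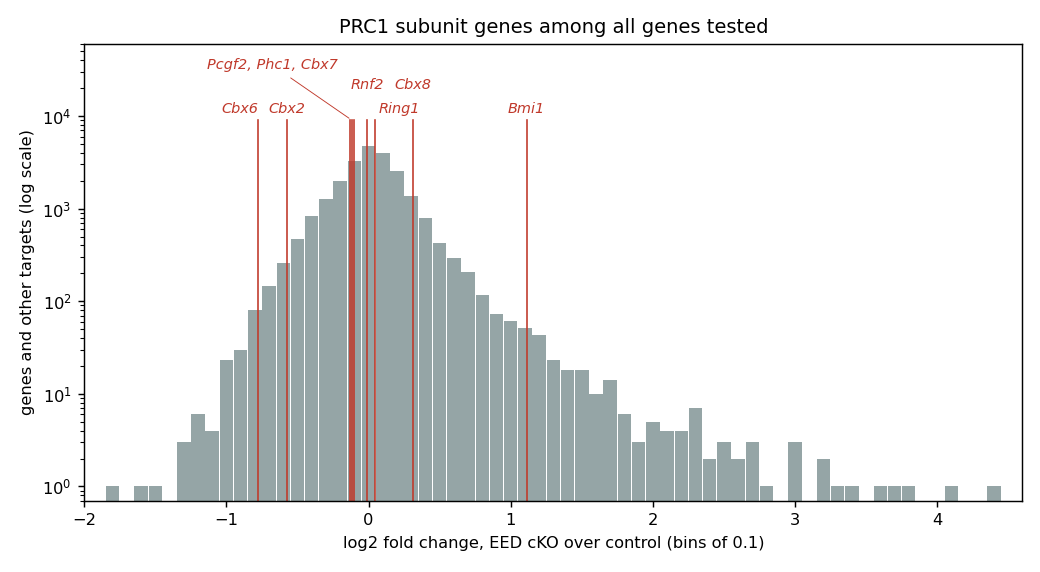
The bars count the 23202 genes and targets tested (vertical axis, log scale) by log2 fold change, EED cKO over control, in bins of 0.1, and the red lines mark the 9 PRC1 genes. Bmi1 at 1.11 lies in the upper tail. Cbx2 at -0.57 and Cbx6 at -0.78 (brightest probe) lie in the lower one, and 5 genes lie between -0.13 and 0.05.

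One reference RNA was shared by all arrays, and its channel was compared between genotypes after loess and Aquantile, which make arrays more alike. A position effect in the sample channel alone need not show in it. Arrays of EED cKO filled the first row of the slide and those of control the second, so slide row and genotype cannot be told apart. Over the 13 probes the reference channel differed between genotypes by -0.09 to 0.08 on the log2 scale, with no adjusted p below 0.05 when every probe was tested. With the brightest probe per gene, 0.487% of all genes and targets tested had an adjusted p below 0.05. For the main Bmi1 probe the reference channel differed by -0.03.

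Other genes of the same and related complexes were described from 4 lists of 40 genes, of which 39 were tested (Auts2 was not matched to a probe). Of the 39, 17 had an adjusted p below 0.05, with 2 higher (beside 11.8% of all tested) and 15 lower (beside 9.93%), and none passed the 2-fold limit. Over all tested 2749 of 5052 calls were higher, and 1027 of 2566 with median centring in place of loess. Of the 14977 tested that had a gene symbol, 1871 were higher and 2004 lower. The median log2 fold change of the 39 was -0.15. The count of 17 was 9 without control replicate 2 and 10 without EED cKO replicate 4. The plot of the differences with their intervals shows genes of these lists beside the 9 members.

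**Figure D3:**
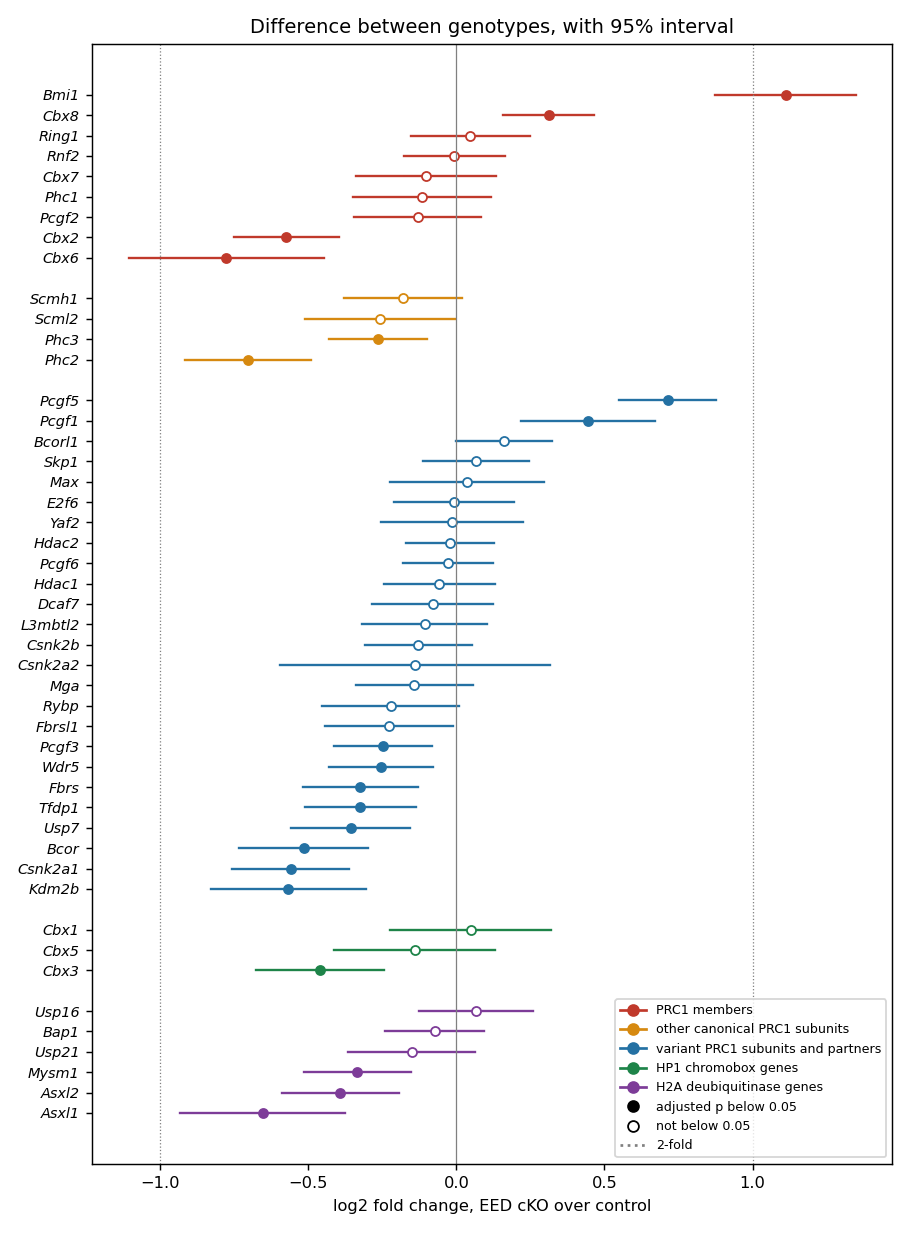
Each point is the log2 fold change of a gene reported here, EED cKO over control (horizontal axis), with its 95% interval as the line, colored by list, filled where the adjusted p was below 0.05, and with the 2-fold limits dotted. Among the 9 PRC1 members at the top only Bmi1 passes the 2-fold limit, and among the other genes plotted Pcgf5 is the highest at 0.71 and Phc2 the lowest at -0.70.

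Among the other canonical subunits, the paralogs of Phc1 fell. Phc2 had log2 ratios of -0.45 to -0.19 in EED cKO and 0.17 to 0.58 in control, without overlap, and a log2 fold change of -0.70 ± 0.10 (SE, adjusted p = 0.00162). Phc3 had -0.27 ± 0.07 (adjusted p = 0.0311). The ranges of Phc3 overlapped between genotypes.

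Of the 25 variant PRC1 subunits and partners tested, 2 rose (beside 11.8% of all tested) and 8 fell (beside 9.93%). Pcgf5, the PCGF subunit of a variant complex, had log2 ratios of -1.68 to -1.58 in EED cKO and -2.53 to -2.17 in control. Its log2 fold change was 0.71 ± 0.07 (SE, adjusted p = 0.000435), and another probe gave 0.65 (adjusted p = 0.00119 among all probes). Pcgf1, the PCGF subunit of the BCOR complex, rose by 0.44 ± 0.10 (adjusted p = 0.0142).

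Bcor and Kdm2b, partners of Pcgf1 in that complex, fell by their main probes. Bcor, a corepressor, had -0.52 ± 0.10 (adjusted p = 0.00669), although a dimmer Bcor probe had 0.15 (adjusted p = 0.295 among all probes). Kdm2b, a CpG-binding demethylase, had -0.57 ± 0.12 (adjusted p = 0.00936), and -0.31 by another probe. Csnk2a1, a catalytic subunit of a casein kinase found with other variant complexes, had -0.56 ± 0.09 (adjusted p = 0.00300). Its 3 other probes gave -0.35 to -0.17, of which the one at -0.17 did not pass. The log2 fold changes of Usp7, Tfdp1, Fbrs, Pcgf3 and Wdr5, which also fell, lay between -0.36 and -0.25. Another Usp7 probe gave -0.22 and did not pass (adjusted p = 0.0625 among all probes), and another Tfdp1 probe gave -0.50 (adjusted p = 0.00385).

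The HP1 chromobox genes encode chromodomain proteins that read trimethylated lysine 9 of histone H3 and are no PRC1 subunits. Cbx3 fell by 0.46 ± 0.10 on the log2 scale (adjusted p = 0.0101), although another Cbx3 probe gave -0.27 and did not pass (adjusted p = 0.0541 among all probes). Cbx1 (0.05) and Cbx5 (-0.14) did not pass the test. Of the 6 genes that remove or help remove ubiquitin from histone H2A, Asxl1 had -0.65 ± 0.12 (adjusted p = 0.00672), Asxl2 had -0.39 ± 0.09 (adjusted p = 0.0131) and Mysm1 had -0.33 ± 0.08 (adjusted p = 0.0174). Another Asxl2 probe gave -0.21 and did not pass (adjusted p = 0.203 among all probes). Bap1, Usp16 and Usp21 did not pass.

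The targeted gene and the tissue markers were checked on the same arrays. Eed fell by 1.46 ± 0.09 (SE) on the log2 scale, with log2 ratios of -2.04 to -1.66 in EED cKO and -0.46 to -0.18 in control (adjusted p = 2.11e-05), and where its probe lies relative to the floxed exons was not given in the sources used here. The mean log2 ratio of the basal epidermal markers was 3.56 to 3.92 in EED cKO and 3.84 to 4.32 in control, and 4 of 6 fell. Merkel cell markers rose in 6 of 6 tested. The mean ratio over the 7 on the array, with the untested Piezo2, was -0.90 to -0.72 in EED cKO and -1.49 to -1.30 in control. Endothelial markers rose in 2 of 2 tested. The mean ratio over the 5 on the array, with the untested Cdh5, Tek and Emcn, was 0.41 to 0.53 in EED cKO and 0.09 to 0.23 in control. Cdh5 and Tek were not above background on any array. Immune markers rose in 2 of 5 tested and proliferation markers fell in 3 of 11, with ranges that overlapped between genotypes. These marker counts stand beside 11.8% higher and 9.93% lower of all genes and targets tested. Mean ratios of Y-linked genes were 1.19 and 1.02 in control replicates 2 and 3 and -1.51 to -1.31 on the other 6 arrays. The Y-linked signal was thus high in control samples only, and the genotypes were not balanced in it. In bulk epidermis fewer cells of a type and less RNA per cell cannot be told apart, and the part of these markers in the changes of the PRC1 genes was not tested.

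Bmi1 was the member with the largest change, and the genes whose ratios ran most like it over the 8 arrays were Defa2, Vax2os, Rasgrf1, Cers2 and Nts, each with a Pearson correlation of 0.99. In all 102 of 14968 other genes with a symbol had a correlation above 0.95 with Bmi1. The points share the slide, the reference RNA and the genotype step, and these correlations are a description.

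Each member was recomputed under other background corrections, normalizations, filters and tests and with each array left out. Bmi1 ranged from 0.97 to 1.22 on the log2 scale, Cbx2 from -0.74 to -0.52, Cbx6 from -0.96 to -0.32 and Cbx8 from 0.16 to 0.41. These 4 kept their direction in all 26 settings. Cbx2, Cbx6 and Cbx8 each had a p below 0.05 in 25 of them, adjusted in each but the methods' t-test unadjusted. None of the other 5 members passed in any setting.

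**Figure D4:**
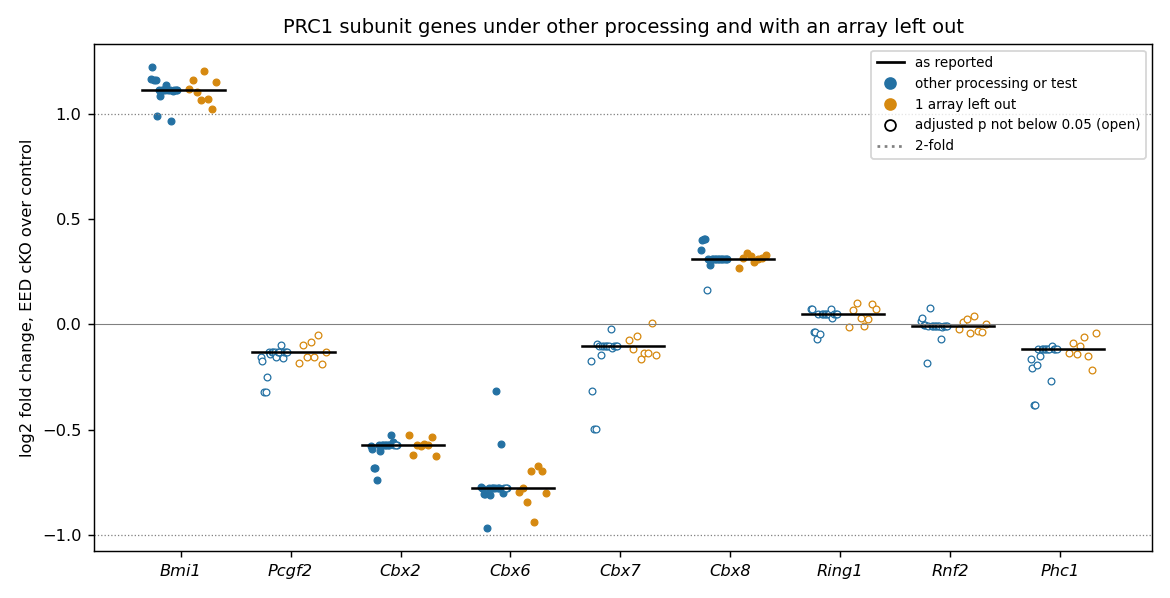
For each PRC1 gene the log2 fold change, EED cKO over control (vertical axis), is shown as reported (black line), under other processing or tests (blue) and with a single array left out (orange), open where the adjusted p was not below 0.05. The methods' t-test unadjusted is drawn by its unadjusted p. Bmi1 stays between 0.97 and 1.22, Cbx6 spreads from -0.96 to -0.32, and Ring1, Rnf2 and Cbx7 reach both sides of 0.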

How the data were processed

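The authors scanned the 8 arrays and extracted spots with Agilent Feature Extraction 12.0.1.1 (per the labels). The deposited files hold, per spot, linear intensity of spot and local background in each channel, flags, and the software's log10 ratio (Cy5 over Cy3) made after background subtraction and dye normalization. A deposited table of log2 ratios was within 7.33e-06 of those processed signals, sample over reference and not centred.

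Here median spot intensity was background-corrected (normexp, offset 50), control and outlier spots were left out, arrays were normalized by loess, and ratios were turned to sample over reference by the dyes in the labels. The deposited RefSeq accessions matched a symbol in GRCm38.p6 for 28026 of 29796 probes. A gene was represented by its brightest probe, tested where at least 3 of the 4 arrays of either genotype held it well above background, and each probe of a member was also tested on its own. Of 23202 genes and targets tested, 8225 had no symbol, and 18 missing values, over all tested, were filled with the group mean.

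The comparison used limma 3.58.1 under R 4.3.3, with terms for genotype and dye orientation, moderated by eBayes, and p-values were adjusted by Benjamini-Hochberg over all tested, at an adjusted p of 0.05, with the 2-fold limit of the study's methods as a further limit. The script was tested on simulated data. The number of arrays, 4 per genotype, limits the precision, and no spot was saturated. From 51.5% to 65.5% of probes per array were well above background. All arrays were on 1 slide in 1 scan.

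Replicate numbers are described by the labels as biological replicates and coincide with the column on the slide and the dye. Deviations from the group means correlated between same-numbered arrays at 0.49, 0.68, 0.33 and 0.36 for numbers 1 to 4, and at -0.14, 0.23, -0.13 and 0.05 once the dye was fitted. Every pair was above a limit of 0.1 before the dye was fitted, but not afterwards, so whether the numbers pair the arrays is unknown. The main fit had no term for the number, and a fit with the number as a block was run as an alternative.

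Members and gene lists were chosen with earlier results of these data known. Named were all members, Eed, each gene of the other 4 lists with an adjusted p below 0.05, and the 5 genes most correlated with the member that changed most. A gene that the rule would name is not reported here. Cbx1, Cbx5, Bap1, Usp16, Usp21, neighbors and markers were named besides. Marker lists for dermal fibroblasts, melanocytes, Schwann cells and neurons, erythroid cells, skeletal muscle and differentiated epidermis were also measured. Changes were found for 2 of 7 tested, 0 of 6, 2 of 5, 0 of 2, 0 of 3 and 0 of 5 of them in that order (1 higher and 1 lower in each list with 2), and the mean ratios of none of these lists separated the genotypes. Of all genes and targets tested 21.8% changed.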

Additional observations from a re-analysis of the deposited data

How the results depend on the processing

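Every count of members kept its value when single arrays were left out (4 at the adjusted p limit, 1 past 2-fold). The count at the adjusted p limit was 2 (Bmi1 and Cbx8) by the methods' t-test after Benjamini-Hochberg adjustment, and by that t-test unadjusted with the 2-fold limit it was 1 (Bmi1). The count past 2-fold was 0 with median centring in place of loess and 0 with Y-linked genes as a covariate. For the other Polycomb and chromobox genes, 17 as reported, the count was 11 with median centring, 11 with Y-linked genes as a covariate, 7 without the dye term, 2 by the adjusted t-test, and 9 to 16 with single arrays left out (10 without EED cKO replicate 4 and 9 without control replicate 2). The replicate block left the members at 4 and 1. Among the members and the other listed genes it changed no call other than that of Scml2, which made 18 of the other genes. Over all genes and targets tested the block gave 5997 at the adjusted p limit, against 5052 as reported. The sign turned for 3 genes that never passed the test. Ring1 was -0.036 with the Feature Extraction log ratio, -0.036 with the deposited log2 table, -0.067 with median centring and -0.044 with the sample channel alone, and ranged from -0.011 to 0.10 with single arrays left out. Rnf2 was 0.015 without background correction, 0.033 with normexp without an offset and 0.077 with the sample channel alone, was furthest away at -0.18 with median centring, and ranged from -0.042 to 0.039 with single arrays left out. Cbx7 ranged from -0.17 to 0.0055 with single arrays left out, the latter without control replicate 3. Over all genes tested, the count past both limits was 283 as reported, 617 with normexp without an offset, 699 with the Feature Extraction log ratio and with the deposited table, and 177 by the adjusted t-test. Of these, 258 were higher as reported and 156 of 213 with median centring. At the adjusted p limit 5052 as reported became 2566 with median centring, 2373 without the dye term, 2822 with Y-linked genes as a covariate, 921 by the adjusted t-test, 3345 without EED cKO replicate 3, 2957 without EED cKO replicate 4 and 2730 without control replicate 2. The causes were not tested. Aquantile after loess leaves ratios as they are. The offset of 50 shrinks differences of dim spots, which bears on Cbx7, Phc1, Pcgf2 and the dimmest Cbx6 probe.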
